A study of Mus musculus with 4 samples.

Results

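Smooth muscle and pericyte genes mark the mural cells, the contractile and supporting cells wrapped around blood vessels. The 10 genes described here were taken by their GENCODE symbols, and all 10 were found among the 55401 genes of the count files. They are Acta2, Myh11, Tagln, Cnn1, Myl9 and Synpo2, which belong to the contractile and actin-bundling apparatus, and Pdgfrb, Rgs5, Cspg4 and Notch3, which are used as pericyte and mural cell markers. In the whole-muscle RNA of mice with iliac vein stenosis, 1 of the 9 genes tested (Synpo2) was called different between diosmin and saline. Of all genes tested, 2.96% were called. The Synpo2 call did not hold in every alternative fit. Acta2, Tagln, Myl9 and Rgs5 had overlapping levels in the libraries of both groups. For Myh11, Pdgfrb, Cspg4 and Notch3 both diosmin libraries lay above both saline libraries without a call. Both lay above for 23.4% of all genes tested.

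The semimembranosus, one of the hamstrings, was taken from C57BL/6 mice of 8 weeks, and its poly(A) RNA was sequenced. All animals carried a narrowed left external iliac vein, made by tying the vessel around a needle of 30 gauge. Saline was given by stomach in the group called IVS, for iliac vein stenosis (2 libraries). In IVS_diosmin (2 libraries) it was replaced by diosmin, a flavonoid used against venous disease, with a daily dose of 40 mg/kg. No unoperated muscle was analysed here, and the labels do not say whether the 2 libraries of a group came from separate animals, and the p-values therefore rest on a spread within groups that may be purely technical.

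Arterial smooth muscle contracts when the calcium-activated myosin light chain kinase phosphorylates the regulatory light chain, of which Myl9 is the smooth muscle form, so that the myosin heavy chain Myh11 pulls on actin filaments of Acta2. Calponin (Cnn1) and transgelin (Tagln) bind those filaments, and serum response factor with its cofactors switches many of these genes on through a promoter element called the CArG box. Pericytes sit on capillaries. Endothelial PDGF-B acts on their receptor Pdgfrb, and Notch ligands on neighbouring cells act on Notch3, while Cspg4 (NG2) is a surface proteoglycan and Rgs5 a brake on G-protein signalling. Several of these genes are not confined to mural cells: fibroblasts also use Pdgfrb, and skeletal muscle fibres also make Synpo2 at their Z-discs.

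Each library held between 13056650 and 15324354 reads counted in genes. The test covered 13533 genes, 9 of the 10 members among them (all but Cnn1). Levels are given as RPKM, counts scaled by exon length and by the TMM-adjusted library size, which allows genes of different length to be compared, and differences as log2 fold changes, IVS_diosmin minus IVS. The fast skeletal muscle genes that define the tissue were abundant, with Acta1 at 7228 to 12866 RPKM. A single rRNA gene, CT010467.1, took 4.14% and 3.80% of gene counts in the IVS libraries and 1.16% and 0.936% in the diosmin libraries, and reads aligned to more than 1 place made up 37.7% and 38.8% against 45.6% and 43.6% of all reads. These values did not overlap between the groups, and their part in the results was not tested.

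Promoter sequence is shown for 4 members: Acta2 and Myl9 because their windows hold CArG or CArG-like elements, Synpo2 because it passed the test, and Rgs5 because it was the most abundant. RefSeq windows on build GRCm38.p6 were searched for 7 of the 10 members, and those of Tagln, Myh11 and Pdgfrb were left out. Each line gives the 250 bases before the annotated start, 5′ to 3′ on the gene's strand. Capitals mark a CArG box (CC, 6 bases of A or T, then GG; the pattern reads the same on both strands) or a box with 1 changed base in its core. The windows are chr19:34255374-34255623 (minus strand) for Acta2, chr2:156775214-156775463 (plus) for Myl9, chr3:123236150-123236399 (minus) for Synpo2 and chr1:169655251-169655500 (plus) for Rgs5.
Acta2: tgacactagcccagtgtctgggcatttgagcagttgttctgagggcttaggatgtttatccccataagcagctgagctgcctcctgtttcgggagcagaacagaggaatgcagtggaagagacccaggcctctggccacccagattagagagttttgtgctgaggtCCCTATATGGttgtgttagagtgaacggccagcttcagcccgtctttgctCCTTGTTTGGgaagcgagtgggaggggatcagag
Myl9: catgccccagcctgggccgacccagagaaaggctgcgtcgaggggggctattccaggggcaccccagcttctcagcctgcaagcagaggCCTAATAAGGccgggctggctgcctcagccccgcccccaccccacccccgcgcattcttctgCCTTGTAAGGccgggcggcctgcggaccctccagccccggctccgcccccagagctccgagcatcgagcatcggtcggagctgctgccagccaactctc
Synpo2: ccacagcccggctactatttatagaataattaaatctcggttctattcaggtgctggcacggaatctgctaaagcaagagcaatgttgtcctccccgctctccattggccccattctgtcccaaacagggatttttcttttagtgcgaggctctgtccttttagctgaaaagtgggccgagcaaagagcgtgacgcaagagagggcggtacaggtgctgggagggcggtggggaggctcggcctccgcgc
Rgs5: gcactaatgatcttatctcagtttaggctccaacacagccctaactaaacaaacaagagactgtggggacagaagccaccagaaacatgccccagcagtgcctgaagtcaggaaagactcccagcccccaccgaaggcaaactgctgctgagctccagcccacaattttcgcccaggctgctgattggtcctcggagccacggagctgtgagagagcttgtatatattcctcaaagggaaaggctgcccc
Myl9 held 1 full CArG box, at -161 to -152 from the RefSeq start, and 1 box with a changed core base at -99 to -90. The Acta2 window held 2 boxes with a changed core base, at -84 to -75 and at -34 to -25. No such letters occurred in the windows of Synpo2, Rgs5, Cnn1, Cspg4 or Notch3. Of 32851 promoter windows of the same length, 1.47% held a full box and 7.24% a box with 1 changed core base. A match of letters is a description of the window and not a measured binding site.

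Members differed widely in level. Averaged over the 4 libraries, Rgs5 was highest at 24.8 RPKM, followed by Myl9 (17.0), Acta2 (13.4), Tagln (11.1), Synpo2 (10.7), Myh11 (4.31), Pdgfrb (3.42), Notch3 (0.795), Cspg4 (0.526) and Cnn1 (0.197). The range of Rgs5 over libraries did not overlap that of Myl9. From Myl9 down to Synpo2 each range overlapped the next, as did those of Myh11 and Pdgfrb and of Notch3 and Cspg4. Within a library the order was steadier. Myl9 lay above Acta2, Acta2 above Tagln, Myh11 above Pdgfrb and Notch3 above Cspg4 in 4 of 4 libraries each, while Tagln lay above Synpo2 in the 2 IVS libraries and below it in the 2 diosmin libraries. Other markers fixed for the check of cell identity were present at like levels: smoothelin (Smtn) ran from 12.0 to 14.3 RPKM, leiomodin (Lmod1) from 1.15 to 2.55, the pericyte potassium channel gene Kcnj8 from 0.790 to 1.41 and Higd1b from 0.574 to 2.64. Enteric-type smooth muscle actin (Actg2) had 3 counts in IVS_diosmin replicate 1 and 0 in the other 3 libraries. In whole muscle, fewer mural cells and less RNA per mural cell cannot be told apart.

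**Figure D1:**
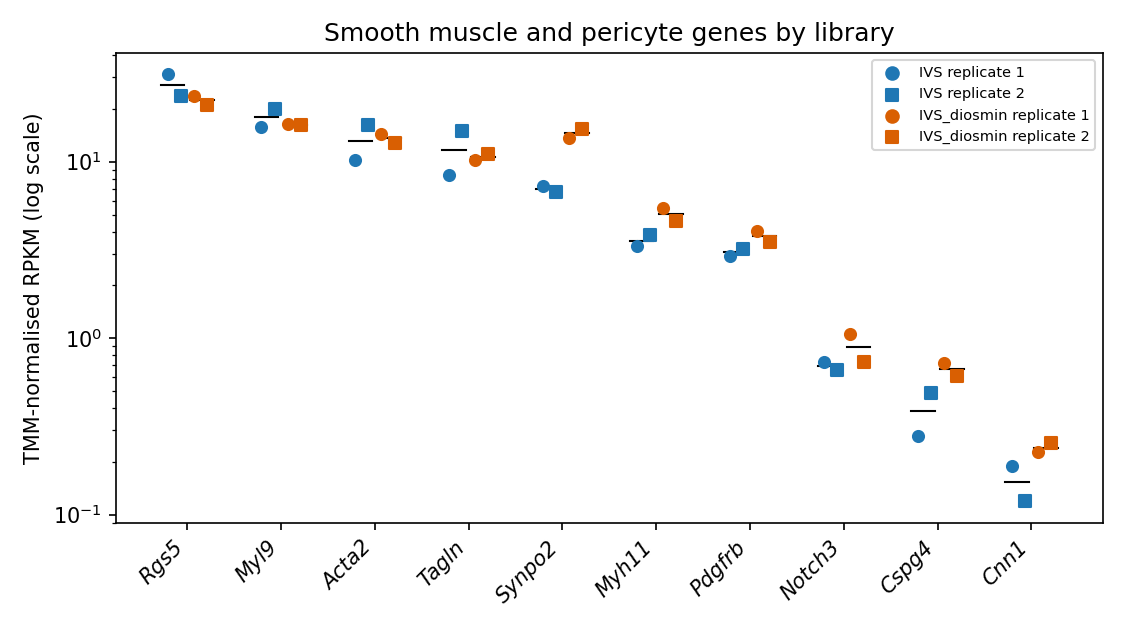
Level of each of the 10 genes (TMM-normalised RPKM, log axis) in the 2 IVS libraries (blue) and the 2 IVS_diosmin libraries (orange), with circles for replicate 1, squares for replicate 2 and bars for group means. Synpo2 sits at 7.25 and 6.72 RPKM in IVS and at 13.6 and 15.4 RPKM with diosmin, while the points of Acta2, Tagln, Myl9 and Rgs5 interleave.

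Of the 9 members tested, 1 rose and none fell, where 2.96% of all 13533 genes tested differed (1.17% higher and 1.78% lower). The counts of genes called on the other lists below stand beside these same shares. The calls are from edgeR's quasi-likelihood test with Benjamini-Hochberg adjustment over all genes tested and a threshold of 0.05. The median log2 fold change of the 9 members was 0.29, beside 0.01 over all genes tested. In 5 of the 9 (Synpo2, Myh11, Pdgfrb, Cspg4 and Notch3) both diosmin libraries lay above both IVS libraries, as they did for 23.4% of all genes tested. In 0 of the 9 both lay below, against 24.1% of all genes tested. At an unadjusted p under 0.05 there were 3 members, Synpo2, Myh11 and Cspg4.

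Among the contractile genes, smooth muscle actin Acta2 (mm10 chromosome 19, 34241090 to 34255590) was at 10.3 and 16.1 RPKM in IVS replicates 1 and 2 and at 14.4 and 12.8 RPKM in the diosmin replicates. Both diosmin values lay between the 2 IVS values. Its log2 fold change was 0.05 ± 0.24 (SE, edgeR adjusted p = 0.952), with a 95% interval from -0.47 to 0.58, and it was -0.24 without IVS replicate 1 and 0.40 without IVS replicate 2. The skeletal actin Acta1, a close relative, was 578 to 1005 times higher per length. No window of 100 bases of the Acta2 transcript occurred in a transcript of another gene, and 7 of its 1986 windows of 50 bases did.

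Tagln (chromosome 9, 45929619 to 45936058) followed Acta2 over the libraries, at 8.40 and 14.8 RPKM in IVS and at 10.2 and 11.1 RPKM with diosmin. The diosmin values again fell between those of IVS (log2 fold change -0.12 ± 0.27, adjusted p = 0.880), with -0.48 without IVS replicate 1 and 0.34 without IVS replicate 2. The level of Tagln is uncertain, because 1241 of its 1988 exon bases lie opposite exons of Gm48529. The counts of Gm48529 were 1.02, 1.01, 1.03 and 0.868 times those of Tagln in IVS replicates 1 and 2 and diosmin replicates 1 and 2, and reads of the 2 genes cannot be told apart without strand. Myl9 (chromosome 2, 156775420 to 156781658) was at 15.8 and 19.9 RPKM in IVS and at 16.4 and 16.1 RPKM with diosmin, a log2 fold change of -0.13 ± 0.22 (adjusted p = 0.832, 95% interval -0.62 to 0.35). Acta2, Tagln and Myl9 were thus each lowest in IVS replicate 1 and highest in IVS replicate 2.

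That spread within the saline group ran alongside the markers of some other cell types. The 9 Schwann cell genes, which mark nerve, summed to 47.4 and 303 CPM in IVS replicates 1 and 2 and to 78.6 and 137 CPM in the diosmin replicates. None of these genes was at 0 in every library, and 0 of the 8 tested passed edgeR's test (0 at an unadjusted p under 0.05, and 0 with DESeq2). Without IVS replicate 1, 3 of them were lower with diosmin. The smallest p-values on that list were those of S100b, a calcium-binding protein of glia (log2 fold change -0.73, adjusted p = 0.661), and Prx, periaxin of myelin (-0.70, 0.681). Fibroblast genes were likewise lowest in IVS replicate 1 and highest in IVS replicate 2, with sums of 246, 428, 341 and 303 CPM. So were leukocyte genes, with sums of 19.0, 28.9, 19.4 and 24.9 CPM. The sums of endothelial, skeletal fibre, slow fibre, adipocyte and tendon genes did not have this order. The part of nerve, connective tissue or leukocytes in the spread of Acta2, Tagln and Myl9 was not tested.

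Myh11, the smooth muscle myosin heavy chain (chromosome 16, 14194535 to 14291372), was at 3.33 and 3.82 RPKM in IVS and at 5.50 and 4.59 RPKM with diosmin. The groups did not overlap, but the difference missed the threshold (log2 fold change 0.50 ± 0.21, adjusted p = 0.252, 95% interval 0.04 to 0.95). Calponin, Cnn1 (chromosome 9, 22099216 to 22109630), was too low to be tested. It had 9 and 4 counts in IVS and 8 and 10 counts with diosmin, which is 0.119 to 0.254 RPKM.

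Synpo2 (synaptopodin 2, or myopodin; chromosome 3, 123076519 to 123236149) bundles actin and binds filamin and alpha-actinin. It was the member that rose, at 7.25 and 6.72 RPKM in IVS replicates 1 and 2 and at 13.6 and 15.4 RPKM in diosmin replicates 1 and 2, from 1083 to 2895 counts per library. Both diosmin libraries lay well above both IVS libraries, and the group means were 6.99 ± 0.37 and 14.5 ± 1.2 RPKM (SD, n = 2). The log2 fold change was 1.05 ± 0.20 (SE, edgeR adjusted p = 0.0173, 95% interval 0.62 to 1.49), a 2.08-fold difference. The size held when any 1 library was left out (log2 0.95 to 1.14), but the call did not (leaving out IVS replicate 1 gave adjusted p = 0.0575, IVS replicate 2 gave 0.176, IVS_diosmin replicate 1 gave 0.120 and IVS_diosmin replicate 2 gave 0.0669, where a lone library is taken to vary as the remaining pair does). The rRNA share given above was lower in the same 2 libraries.

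**Figure D2:**
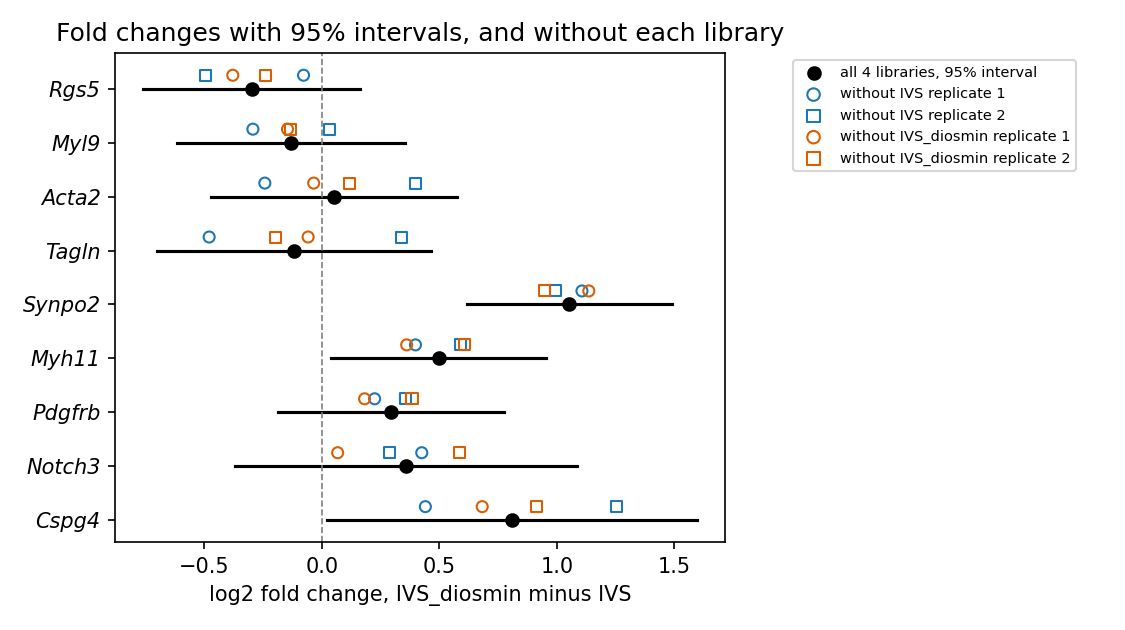
Log2 fold change (IVS_diosmin minus IVS) of the 9 tested genes with all 4 libraries (black point, bar for the 95% interval) and without each library in turn (open symbols). Synpo2 stays between 0.95 and 1.14, while Acta2, Tagln and Myl9 move across 0 depending on which IVS library is left out.

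Synpo2 was compared with the genes of the fibre's Z-disc, where it also resides. Of 14 such relatives and partners, 14 were tested, 1 rose (2 with DESeq2) and none fell, with a median log2 fold change of 0.41. Nrap, an actin-binding protein of myofibril assembly, rose from 54.9 and 48.3 RPKM to 97.0 and 88.3 RPKM (log2 0.84 ± 0.20, adjusted p = 0.0450). Desmin (Des), not among the 14, is the intermediate filament that ties Z-discs together in striated muscle and is also made by smooth muscle and pericytes. Des rose from 429 and 450 RPKM to 837 and 785 RPKM (log2 0.88 ± 0.20, adjusted p = 0.0365). The calls of Nrap and Des were both lost without any 1 library (adjusted p 0.104 to 0.337 for Nrap and 0.105 to 0.249 for Des).

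The most abundant partners did not pass. For Actn3, the alpha-actinin of fast fibres, the log2 fold change came to 0.56 (adjusted p = 0.183), Ldb3, a PDZ-LIM protein of the Z-disc, 0.57 (0.170), Myot, myotilin, 0.54 (0.206), and Flnc, the muscle filamin, 0.49 (0.520). The 2 relatives of Synpo2, Synpo (log2 0.25, adjusted p = 0.611) and Synpo2l (0.24, 0.648), did not pass either and are named for their kinship after their values were seen. Relative to Des, the counts of Synpo2 were 0.0589 and 0.0521 in IVS and 0.0569 and 0.0682 with diosmin, so the ratio overlapped between the groups. Relative to Actn2, the other muscle alpha-actinin, the ratio was 0.683 and 0.531 in IVS and 0.356 and 0.848 with diosmin. That overlap came with diosmin values on either side of both IVS values. Relative to the giant sarcomere protein titin (Ttn) it did not, at 0.0150 and 0.0155 in IVS and 0.0218 and 0.0248 with diosmin, nor relative to Acta1, at 0.00855 and 0.00617 against 0.00980 and 0.0102. Relative to Myh11, the counts of Synpo2 were 3.75 and 3.03 in IVS and 4.27 and 5.77 with diosmin, which did not overlap.

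**Figure D3:**
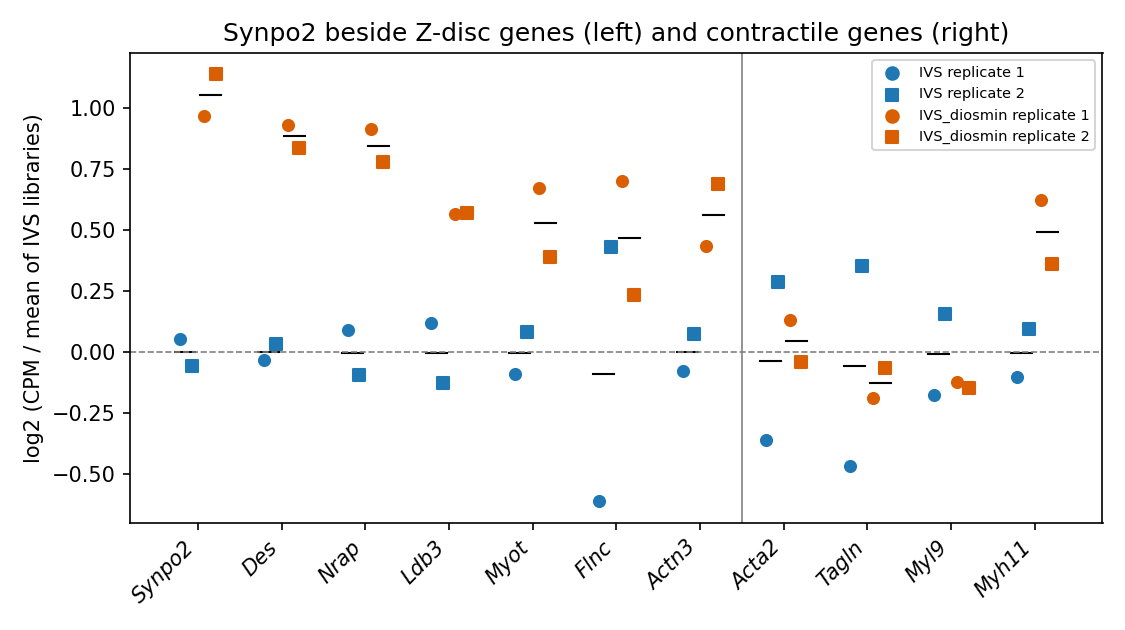
Level of each gene in each library relative to the mean of the IVS libraries (log2 of the CPM ratio, with bars for the group means of these log2 values), for Synpo2 and 6 Z-disc genes on the left and 4 contractile smooth muscle genes on the right. Both diosmin libraries lie above both IVS libraries for Synpo2, Des, Nrap, Ldb3, Myot and Actn3, and for Myh11 on the right. Those of Acta2, Tagln and Myl9 do not.

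Skeletal fibre genes differed in the same libraries. Of 11 slow fibre genes, 10 rose and none fell, and their summed level was 93.7 and 103 CPM in IVS against 3958 and 1597 CPM with diosmin. None of the 11 was at 0 in every library. Myh7b, a slow-type myosin, rose by a log2 fold change of 3.71 (adjusted p = 2.45e-05), Tnnt1, slow troponin T, of 5.74 (0.000408), Atp2a2, the slow-type calcium pump, of 3.40 (0.00299), and Myl3, a slow myosin light chain, of 5.49 (0.00389). Of 15 genes that define fast muscle or all fibres, 3 rose (Myh1, Mb and Des) and 1 fell (Tnnc2). This count of 4 was 0 without IVS replicate 2 or without IVS_diosmin replicate 1, and 2 without IVS_diosmin replicate 2. Their sums were 142227 and 158478 CPM in IVS and 136386 and 140589 CPM with diosmin, so both diosmin sums lay below both IVS sums. In diosmin replicates 1 and 2 Synpo2 was at 13.6 and 15.4 RPKM, while the slow fibre sum was 3958 and 1597 CPM. The order of 2 libraries cannot decide whether the 2 are linked. The part of fibre type in the difference of Synpo2 was not tested.

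The pericyte members were led by Rgs5 (chromosome 1, 169655501 to 169695813), at 31.3 and 23.4 RPKM in IVS and at 23.5 and 21.0 RPKM with diosmin. IVS replicate 1 stood above the other 3 libraries, which lay close together (log2 fold change -0.30 ± 0.21, adjusted p = 0.539, 95% interval -0.76 to 0.16). Without IVS replicate 1 the log2 fold change was -0.08. Among 8 relatives of Rgs5 in the R4 family, 3 could be tested and none passed. Those were Rgs2, Rgs3 and Rgs4, of which Rgs3 (log2 -0.35, adjusted p = 0.571) and Rgs4 (0.42, 0.687) had the smallest p-values, and Rgs8 and Rgs13 had 0 counts in every library.

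Pdgfrb (chromosome 18, 61045150 to 61085061), the PDGF receptor of mural cells, was at 2.93 and 3.22 RPKM in IVS and at 4.05 and 3.49 RPKM with diosmin. The groups did not overlap, and the difference missed the threshold (log2 0.29 ± 0.22, adjusted p = 0.567, 95% interval -0.19 to 0.78). Cspg4 (chromosome 9, 56865033 to 56899870) was at 0.278 and 0.490 RPKM in IVS and at 0.724 and 0.611 RPKM with diosmin, from 58 to 112 counts per library. It had the second largest fold change of the members (log2 0.81 ± 0.36, adjusted p = 0.282), which ran from 0.44 without IVS replicate 1 to 1.26 without IVS replicate 2. Notch3 (chromosome 17, 32120820 to 32166852) was at 0.728 and 0.663 RPKM in IVS and at 1.06 and 0.730 RPKM with diosmin, where diosmin replicate 2 was all but level with IVS replicate 1 (log2 0.36 ± 0.33, adjusted p = 0.667). It was 0.07 without IVS_diosmin replicate 1, and 488 of its 8089 exon bases lie opposite Gm17276, which had 0 to 7 counts.

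Pdgfb, the ligand of Pdgfrb that endothelial cells make to hold pericytes, fell from 8.63 and 9.18 RPKM in IVS to 4.69 and 5.04 RPKM with diosmin (log2 -0.87 ± 0.21, adjusted p = 0.0413). The groups were far apart relative to their spread, but the call was lost without any 1 library (adjusted p 0.0912 to 0.247). Of the 13 tested genes on the list of PDGF ligands, partner receptor and proximal effectors, 0 rose and 1 (Pdgfb) fell, with a median log2 fold change of -0.06. The other ligands, named after their values were seen, were Pdgfa (log2 0.02, adjusted p = 0.980), Pdgfd (-1.12, 0.208) and Pdgfc, which had 2 to 9 counts and was not tested. The ratio of Pdgfrb to Pdgfb counts was 0.447 and 0.462 in IVS and 1.14 and 0.911 with diosmin.

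On the Notch side, Dll4, a ligand made by endothelial cells, fell from 4.23 and 3.52 RPKM to 1.68 and 1.57 RPKM (log2 -1.26 ± 0.27, adjusted p = 0.0297), and its call was lost without any 1 library (adjusted p 0.100 to 0.185). It was the 1 gene that fell among 13 tested Notch ligands, receptors and targets, with none higher and a median log2 fold change of -0.40. Jag1, the ligand best known for signalling to smooth muscle, was at 1.02 and 1.03 RPKM in IVS and at 1.22 and 0.763 RPKM with diosmin (log2 -0.05, adjusted p = 0.965). For Heyl, a Notch target of mural cells, the log2 fold change came to 0.32 (adjusted p = 0.816). Jag2 leaned lower without passing (log2 -0.53, adjusted p = 0.288). Jag1 and Heyl were named after their values were seen.

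**Figure D4:**
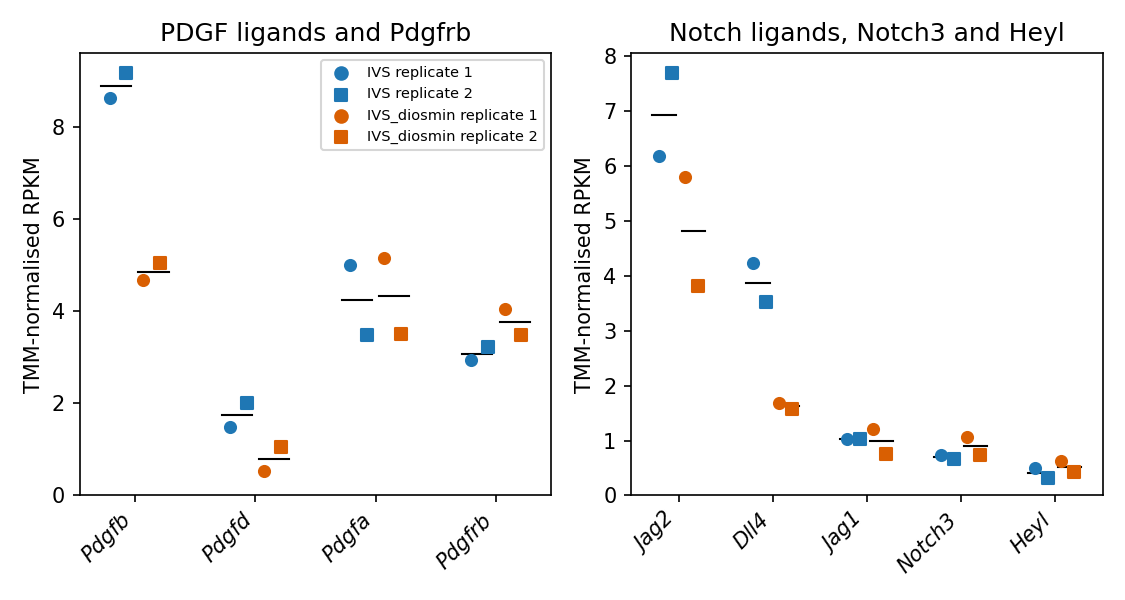
Level (TMM-normalised RPKM, linear axes from 0) of PDGF ligands and their receptor Pdgfrb on the left, and of Notch ligands, Notch3 and the target Heyl on the right, in each library, with bars for group means. Pdgfb and Dll4 are lower in both diosmin libraries, while Pdgfrb lies at 2.93 to 4.05 RPKM and Notch3 at 0.663 to 1.06 RPKM.

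Endothelial genes moved in the same libraries. Among 20 tested, 9 fell and 0 rose, where 1.78% of all genes tested were called lower. The median log2 fold change of the 20 was -0.91. In 18 of the 20 both diosmin libraries lay below both IVS libraries, as they did for 24.1% of all genes tested. None of the 20 was at 0 in every library. The falls of smallest p were those of Cdh5 (log2 -1.34, adjusted p = 0.00491), Esam (-1.15, 0.0121), Erg (-1.28, 0.0179) and Pecam1 (-1.04, 0.0195), genes of endothelial junctions and, for Erg, transcription. Without IVS replicate 1, 6 of the 20 passed, without IVS replicate 2, 2 passed, without IVS_diosmin replicate 2, 3 passed, and without IVS_diosmin replicate 1, 0 passed (9 of 20 with edgeR and 10 with DESeq2 on all libraries). The part of endothelial content in the falls of Pdgfb and Dll4 was not tested.

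The members were set against the endothelial genes of the same library. The summed CPM of the 4 pericyte members was 0.182 and 0.128 of the endothelial sum in IVS and 0.249 and 0.246 with diosmin. For the contractile members without Synpo2 the ratio was 0.0905 and 0.110 in IVS and 0.193 and 0.201 with diosmin. Neither ratio overlapped between the groups. The numerators themselves overlapped, at 167 and 135 against 146 and 128 CPM for the pericyte members and 83.4 and 117 against 113 and 104 CPM for the contractile members without Synpo2, while the endothelial sum was 922 and 1061 CPM against 586 and 519 CPM. Rgs5 made up most of the pericyte sum, at 142 and 107 CPM in IVS and 107 and 95.6 CPM with diosmin. The other pericyte members, Pdgfrb, Cspg4 and Notch3, were each higher in both diosmin libraries than in both IVS libraries, without passing. The smallest p that an exact permutation test of such a ratio to the endothelial sum allows here is 0.333 (n = 2 per group, 2-sided). The difference between mural and endothelial genes was therefore given no test of its own.

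**Figure D5:**
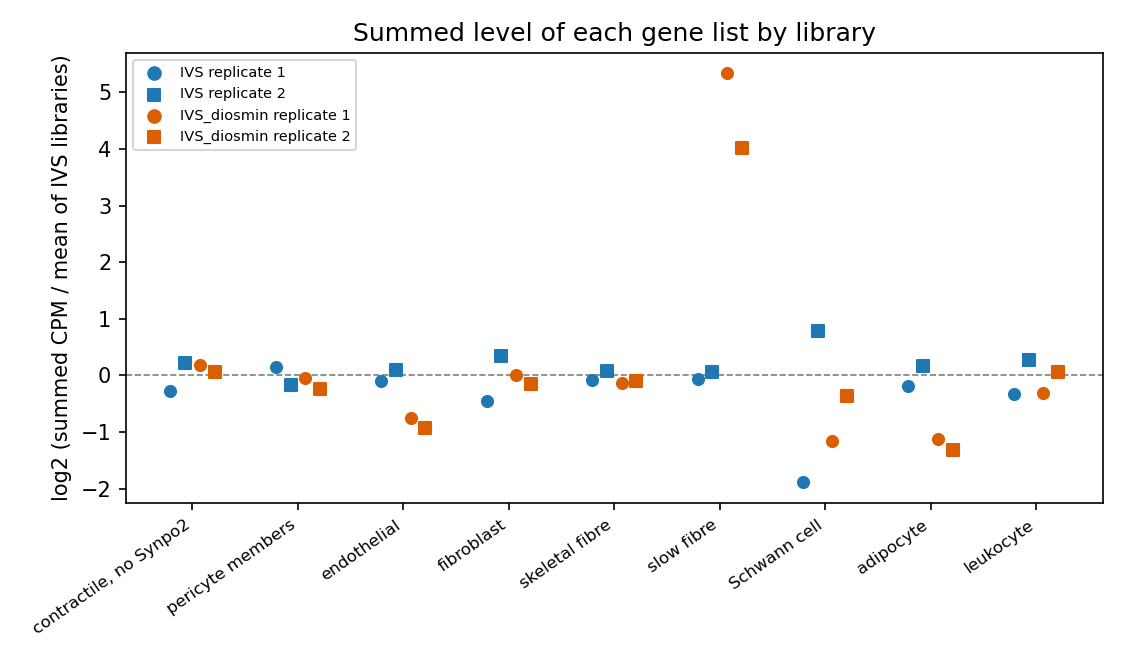
Summed CPM of each gene list in each library, as log2 of its ratio to the mean of the IVS libraries, with blue for IVS, orange for IVS_diosmin, circles for replicate 1 and squares for replicate 2. The sums of the contractile members without Synpo2 and of the pericyte members, the latter mostly Rgs5, overlap between groups. The endothelial list is lower in both diosmin libraries (586 and 519 CPM against 922 and 1061 CPM). The slow fibre list is higher (3958 and 1597 CPM against 93.7 and 103 CPM).

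Further genes of the contractile apparatus were read from a longer list. Of 34 tested, 1 rose (Des) and 1 fell, with a median log2 fold change of -0.09. Tagln2, the transgelin of non-muscle cells and a relative of Tagln, fell from 9.89 and 13.1 RPKM to 4.18 and 4.80 RPKM (log2 -1.35 ± 0.25, adjusted p = 0.0144), with adjusted p = 0.149 once IVS replicate 2 was left out and 0.174 once IVS_diosmin replicate 1 was. Smtn (log2 -0.10, adjusted p = 0.862), Lmod1 (-0.49, 0.538) and the light chain kinase Mylk (-0.19, 0.815), chosen for their role after their values were seen, did not pass.

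Actins outside the smooth muscle lineage split. Actc1, the cardiac alpha actin, rose from 110 and 139 RPKM to 269 and 244 RPKM (log2 1.04 ± 0.21, adjusted p = 0.0241). Actg1, a cytoplasmic actin, fell from 96.5 and 139 RPKM to 64.4 and 60.5 RPKM (log2 -0.92 ± 0.23, adjusted p = 0.0495). Both levels are uncertain, since near-identical actin genes share reads that align to more than 1 place. Actc1 missed the threshold without IVS replicate 1 (0.126), IVS replicate 2 (0.0922) or IVS_diosmin replicate 1 (0.200). Actg1 missed it with DESeq2's size factors (0.0558) and when IVS replicate 2 or either diosmin library was left out (0.182 to 0.390).

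Of the other pericyte genes, 25 were tested, none rose and 3 fell, and the median log2 fold change was 0.09. Nes, nestin, an intermediate filament also found in endothelium and at nerve and tendon junctions of fibres, fell from 4.99 and 4.19 RPKM to 1.91 and 1.36 RPKM (log2 -1.49 ± 0.24, adjusted p = 0.00826), and its adjusted p was 0.0740 once IVS_diosmin replicate 1 was left out. Epas1, the hypoxia-inducible factor HIF-2 alpha, which endothelium also expresses, fell with a log2 fold change of -0.95 (adjusted p = 0.0284). Art3, a relative of the mono-ADP-ribosyltransferases, fell with one of -1.06 (0.0282). Its level was 12.5 to 32.7 RPKM, beside 2.93 to 4.05 RPKM for Pdgfrb and 21.0 to 31.3 RPKM for Rgs5. Which cells of the muscle made Art3 was not measured. Leaving out IVS replicate 2 or either diosmin library ended both calls (adjusted p 0.0586 to 0.273 for Art3 and 0.0874 to 0.247 for Epas1). Kcnj8 (log2 -0.21, adjusted p = 0.878) and Abcc9 (0.40, 0.417), the channel and its sulphonylurea receptor, and Higd1b (0.09, 0.973) did not pass and are markers fixed for the check of cell identity. Foxf2, a transcription factor of pericytes, had 0 counts in every library.

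The list of serum response factor, its cofactors and other regulators of contractile genes held 12 tested genes. Of these none rose and 1 fell, with a median log2 fold change of 0.24. Klf4, a repressor of the contractile programme that is also an endothelial and early response gene, fell from 8.96 and 19.2 RPKM to 4.48 and 3.26 RPKM (log2 -1.86 ± 0.36, adjusted p = 0.0313). Its call ended when IVS replicate 2 or either diosmin library was left out (0.100 to 0.239). The 4 most abundant of the rest, Tead1 (log2 -0.01, adjusted p = 0.985), Hdac5 (0.53, 0.180), Foxo4 (0.33, 0.458) and Tead3 (0.14, 0.817), did not pass. Srf itself, named for its role with its values known, was at 7.33 and 6.40 RPKM in IVS and at 7.44 and 12.2 RPKM with diosmin. It did not pass (log2 0.52, adjusted p = 0.333), and its higher diosmin level rested on replicate 2. Myocd, the cofactor of smooth muscle and heart, had 0 counts in every library, where 3 counts, the limit that a count of 0 allows, would be 0.172 to 0.244 CPM.

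Receptors and second messengers of vascular tone were mostly scarce, with 11 of 20 tested, 1 higher and none lower (median log2 fold change 0.29). P2rx1, an ATP-gated channel of smooth muscle and platelets, had 0 counts in both IVS libraries and 18 and 15 counts in the diosmin libraries. Set against a floor of 3 counts over the IVS group, the 33 diosmin counts, taken as exact, were 12.0-fold higher. P2rx1 entered the test through its counts in the diosmin libraries alone. Its call (edgeR adjusted p = 0.0396 in the fit with all libraries) is therefore no independent support for a difference. The call was lost without any 1 library (0.150 to 0.321), DESeq2 gave it no adjusted p, and the levels were low, at 0.529 and 0.397 RPKM.

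Markers of other cell types were read in the same way. Of 5 tested leukocyte genes none passed (Csf1r, a macrophage receptor, log2 -0.61, adjusted p = 0.410; Cd3e, a T cell receptor subunit, 0.94, 0.520), with sums of 19.0 to 28.9 CPM, and S100a8 and S100a9 were at 0 in every library. Of 13 tested fibroblast genes 1 fell, Cd34, which endothelium shares (log2 -1.05, adjusted p = 0.0297). Of 3 tested tendon genes none passed (Fmod, log2 -1.84, 0.102; Scx, 0.59, 0.644), and 1 was higher without IVS_diosmin replicate 2. Of 5 tested adipocyte genes 1 fell, Fabp4, which capillary endothelium shares (log2 -1.22, 0.0121), and the list summed to 429 and 546 CPM in IVS against 225 and 195 CPM with diosmin, without overlap. The adipocyte count was 4 without IVS replicate 1, 2 with DESeq2, and 0 without IVS replicate 2 or IVS_diosmin replicate 1. The calls of Fabp4 and Cd34 were each lost in 3 of the 4 fits that left out a library, those without IVS replicate 2 or either diosmin library (adjusted p up to 0.124 and 0.239).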

How the data were processed

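The authors deposited a table of unnormalised read counts for each library. The submitters' processing notes list HISAT2 2.1.0, HTSeq and mm10. Annotation release, strand setting and filters: not given in the sources used here. In each table, 5 HTSeq summary lines that name no gene held 72.3% to 75.1% of reads and were removed before scaling and testing. Symbols, positions and exon lengths came from GENCODE M21 (55141 of 55401 identifiers matched); where genes shared a symbol, that of higher mean count carried it.

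Counts were fitted across all genes with edgeR 4.0.16 in R 4.3.3 (filterByExpr, TMM, robust quasi-likelihood test, 2-sided, Benjamini-Hochberg); the biological coefficient of variation was 0.235. The standard error is the log2 fold change divided by the square root of F, and 95% intervals come from it. No 2 libraries of a group agreed within sampling noise (chi-square over degrees of freedom 31.0 and 21.2). DESeq2 1.42.0, other scalings and filters, a replicate block and leaving out each library were alternatives.

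The members and lists were chosen with earlier results of these data known. The genes named are all members and, per list, up to 4 called genes per direction by p, or the 2 of smallest p where none passed; for regulator and partner lists up to 4 abundant genes as well. Windows of 50 and 100 bases of each member's longest transcript were searched in all other genes' transcripts, both strands; read length is not given in the sources used here. Floors cover counting error only, while the 95% intervals include the spread between libraries.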

Additional observations from a re-analysis of the deposited data

How the results depend on the processing

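The number of genes past the threshold was 400 and moved to 919 with no filter on low counts, to 93 with the replicate block, and to between 38 and 366 without 1 library; DESeq2 called 592. One member passed with all libraries, under both other scalings, both other filters and DESeq2, and 0 with the replicate block and without each library in turn (0 to 0). With the block the adjusted p of Synpo2 was 0.0781 (log2 1.05). The replicate numbers are only numbers here: the correlation of the deviations of same-numbered libraries from their group means was 0.01. Of 90 values of the tested members under alternatives, 81 kept direction and side of the threshold, 5 (all of Synpo2) lost the call and 4 turned direction. The turned values were those of Acta2 without IVS replicate 1 (between -0.24 and 0.40 over the left-out libraries, -0.03 without IVS_diosmin replicate 1), Tagln without IVS replicate 2 (-0.48 to 0.34) and Myl9 without IVS replicate 2 (-0.29 to 0.033). Outside the members, Rgs4 (-0.076 to 0.78), S100b (-1.25 to 0.011) and Prx (-1.60 to 0.43) turned, none past the threshold. The cause was not tested. Depth limits Cnn1, Cspg4 and Notch3 most, with under 120 counts per library.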
